A study of Culex quinquefasciatus with 20 samples.

Results

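Transcripts of female *Cx. quinquefasciatus*, the southern house mosquito, collected a day after exposure to malathion were compared with those of females that were never exposed. The 10 libraries compared were all 5 of the MR group and all 5 of the WI group, out of 20 libraries in the series. A library stood for 10 whole females pooled, less 1 leg each that was taken for species identification by PCR. WI females were reared from eggs collected in the field and were knocked down by cold 3 days after emergence, with no insecticide. MR females were other field mosquitoes that were 3 days old when they were held for 120 min in a bottle coated with 400 µg of malathion, and that were still alive after a further 24 h under insectary conditions. The labels call the genotype of both groups WT. The MS group, whose levels are given beside some genes, held females that were dead when the exposure in the same kind of bottle assay ended, so MS differs from MR both in death and in an earlier collection, and these cannot be told apart. The fourth group, CO, was an unexposed laboratory colony. It enters the filter on low counts, the normalization and the estimate of spread, and its levels are not compared here. No group was handled and held for 24 h without insecticide, so exposure, handling, a day more of age, the knockdown by cold (stated for WI and not for MR) and the removal of the females that died cannot be told apart in any value below.

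Malathion is an organophosphate. Insects convert it to malaoxon, which blocks acetylcholinesterase at the nerve synapse, and carboxylesterases, cytochrome P450s (P450s) and glutathione S-transferases (GSTs) are the 3 enzyme families usually studied for its breakdown. The adult cuticle is a layer of chitin fibres and structural proteins that the epidermis secretes, and in mosquitoes its deposition goes on after emergence. Transcript levels of a whole insect sum over all its tissues, so fewer cells of a type and less RNA per cell cannot be told apart.

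The 5 MR libraries held 143972261 to 167468838 counts on genes and the 5 WI libraries held 154239309 to 184564593. The pair of most counted genes took 13.7% to 25.9% of the counts in MR and 10.9% to 23.1% in WI. None of 6 measures of library makeup, among them the total, the number of genes detected and the TMM factor, separated the groups by an exact two-sided permutation test (lowest p = 0.0952, adjusted p = 0.571). The total was nevertheless lower in MR in all 5 pairs of equal replicate number (exact sign-flip permutation test, two-sided p = 0.0625, the smallest that 5 pairs allow, adjusted p = 0.375). Replicate pools of a group differed by far more than counting error, since the lowest chi-square per gene between 2 pools was 143. Unless stated otherwise, levels are CPM (counts scaled to a common library total) after TMM normalization, listed in the order of replicates 1 to 5, and fold changes are MR over WI.

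Of 17499 genes tested, 867 were called higher in MR than in WI and 698 were called lower (edgeR FDR under 0.05). These were 4.95% and 3.99% of the genes tested, and 8.94% together. At least 2-fold changes were found for 650 of the higher and 424 of the lower genes, and at least 8-fold changes for 133 and 30. The 5 MR values did not overlap the 5 WI values for 681 of the higher and 580 of the lower genes. Over all tested genes, called or not, all 5 MR values lay above all 5 WI values for 6.39% and below them for 5.63%. Genes called higher took 2.72% to 3.78% of all counts in the WI libraries and 7.37% to 15.4% in the MR libraries. Genes called lower took 9.28% to 12.4% in WI and 4.75% to 5.95% in MR. Calls were more frequent among abundant genes, from 2.12% of genes with a mean under 1 CPM to 19.6% of genes with a mean of at least 100 CPM. With the replicate number as a block, 1421 genes were called higher and 1232 lower, and without WI replicate 2 the number called lower fell to 439.

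**Figure D1:**
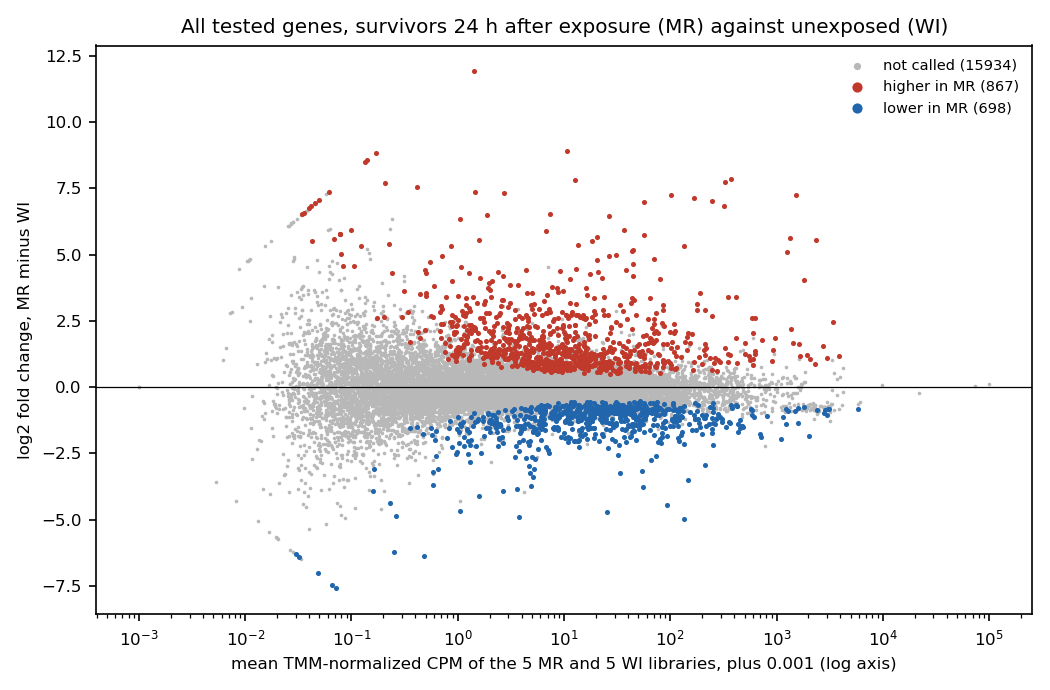
Each point is 1 of the 17499 tested genes, with its mean TMM-normalized CPM over the 10 libraries (log axis) against its log2 fold change, MR minus WI. The 867 genes called higher (red) reach larger changes than the 698 called lower (blue), with 133 against 30 genes past 8-fold.

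The genes that rose most from low levels in WI are not named in the sources used here, except for a cuticle gene and an endopeptidase inhibitor that are described below. CPIJ017875 was at 2.85, 5.92, 2.58, 2.45 and 2.51 CPM in the WI libraries and at 1229.98, 1173, 353, 398 and 579 CPM in the MR libraries. The gap between the groups was far wider than the spread within either, although MR replicates 1 and 2 were well above MR replicates 3, 4 and 5. The fitted change was 229-fold (log2 7.84 ± 0.45, SE; edgeR FDR 6.65e-10). CPIJ017874 rose by log2 7.75 ± 0.75 (FDR 1.02e-06) with MR replicates 1 and 2 again highest, at 1269, 1196, 183, 134 and 456 CPM against 1.501 to 5.01 CPM in WI. CPIJ003470 was at 1782 to 4051 CPM in MR against 11.1 to 33.3 CPM in WI (log2 7.25 ± 0.47, FDR 3.06e-09). CPIJ003474 rose by log2 7.26 ± 0.72 (FDR 1.25e-06), CPIJ000641 by 8.90 ± 1.18 (FDR 4.08e-05) and CPIJ004639 by 7.83 ± 1.04 (FDR 3.86e-05). In the MS females, CPIJ017875 was at 2349 ± 244 CPM and CPIJ003470 at 9510.4 ± 2358 CPM (SD, n = 5), above MR in both cases (edgeR, MR against MS, FDR 0.00502 and 0.00775).

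CPIJ016348 and CPIJ007140 rose without MR replicates 1 and 2 standing apart. CPIJ016348 was at 0, 0, 3.27, 7.10 and 1.599 CPM in WI and at 277, 372, 330.1, 417 and 267 CPM in MR (log2 7.12 ± 1.48, FDR 0.00339). In MS it was at 97.9 ± 53.5 CPM, a level not called different from that of MR (FDR 0.425). CPIJ007140 was detected in 1 WI library, at 0.0863 CPM, and stood at 1.54 to 4.11 CPM in MR (log2 7.36 ± 1.30, FDR 0.000762). It was also higher in MR than in MS, where it averaged 0.215 ± 0.154 CPM (log2 difference MR minus MS 3.72, FDR 0.0368).

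Of the tested genes, 34 had no count in any WI library, and 11 of these were called higher in MR. The one with most counts was CPIJ010521, annotated as an endopeptidase inhibitor, which had 261 to 669 counts in each MR library. Against a floor of 3 counts over the WI group it was at least 872-fold higher in MR, and at least 802-fold without MR replicate 4. In MS it averaged 0.171 ± 0.208 CPM against 2.84 ± 1.10 CPM in MR (SD, n = 5), a difference that did not pass the test (FDR 0.0539). In the other direction, 19 tested genes had no count in any MR library, and 5 of these were called lower. CPIJ000990, with 8 to 47 counts in the WI libraries, was at least 40.3-fold lower in MR, and at least 32.3-fold without WI replicate 1.

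**Figure D2:**
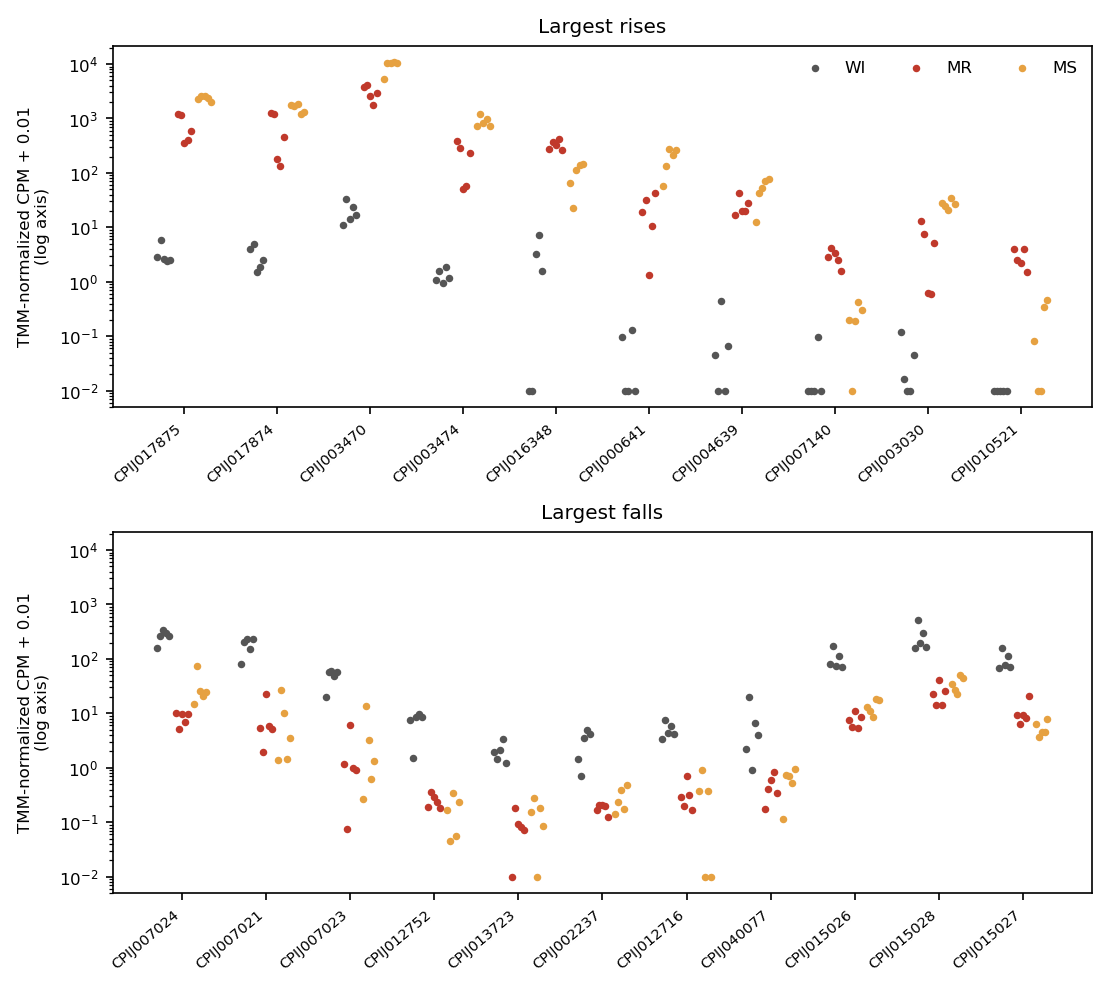
TMM-normalized CPM plus 0.01 (log axis) in each WI, MR and MS library for the genes with the largest rises and falls, with 1 point per library. WI and MR points do not overlap for any of the genes shown, and CPIJ010521 is at 0 in all 5 WI libraries.

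Of the 64 annotation lists, that of the cuticle had the most genes called higher. Structural constituents of cuticle are the proteins that bind and space chitin fibres. Of 34 genes with that annotation, 28 (82.4%) were called higher in MR and none lower, against 4.95% called higher over all tested genes. Their median log2 fold change was 2.86, against -0.0085 over all tested genes, and all 34 estimates were above 0. The list was chosen by the study from genes it called between MR and MS in these libraries, so it is not independent evidence of a direction. Every list below was likewise chosen from calls in these libraries, of MR against MS, of WI against CO or of both. Summed over the 34 genes, the level was 341, 691, 642, 603 and 471 CPM in WI and 7909, 7099, 3581, 2458 and 6447 CPM in MR. Every MR pool was above every WI pool, by 4.47 to 14.4 times the WI mean. In MS the sum was 14082 to 20378 CPM, above all MR pools.

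The cuticle gene CPIJ009331 was at 57.5, 50.01, 102, 57.9 and 86.1 CPM in WI and 3580.45, 2988, 1687, 870.4 and 3101 CPM in MR. It rose by log2 5.11 ± 0.47 (edgeR FDR 7.2e-07), or 34.6-fold, and in MS it was at 6851 ± 1172 CPM. CPIJ017736 rose (log2 4.65 ± 0.42, FDR 5.62e-07), from 1.93 to 5.02 CPM in WI to 30.6 to 131 CPM in MR. CPIJ008831 rose (log2 4.08 ± 0.38, FDR 7.32e-07), from 3.85 to 14.8 CPM to 68.9 to 223 CPM. CPIJ003030 had the largest fold change of the list, with 0.603 and 0.580 CPM in MR replicates 3 and 4 against 13.2, 7.45 and 5.12 CPM in MR replicates 1, 2 and 5. Even its lowest MR value was above the highest WI value of 0.111 CPM (log2 7.32 ± 1.02, FDR 0.000142).

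Chitin itself is bound by a further family of secreted proteins and is made by chitin synthase. None of the 19 genes annotated as chitin binding is also in the cuticle list. Of the 19, 14 (73.7%, against 4.95% of all tested genes) were called higher and none lower, with a median log2 fold change of 2.03. All 5 MR values lay above all 5 WI values for 10 of the 19, against 6.39% of all tested genes. Summed over the 19 genes, the level was 1106 to 2326 CPM in WI and 1187 to 2287 CPM in MR, so the sums overlapped. CPIJ000680 was at 1.42 to 1.80 CPM in WI and at 89.6, 80.5, 12.1, 18.5 and 55.0 CPM in MR (log2 4.96 ± 0.46, FDR 7.32e-07). CPIJ000679 rose by log2 4.26 ± 0.37 (FDR 4.98e-07). CPIJ011623 rose less, by log2 2.48 ± 0.29 (FDR 1.03e-05), and was at 5.96 to 10.1 CPM in the 5 MR libraries, with replicates 1 and 2 not above the rest.

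All 3 genes annotated with chitin synthase activity were called higher, against 4.95% of all tested genes. Only CPIJ016255 was also called without MR replicates 1 and 2 (FDR 0.0511 for CPIJ014268 and 0.0771 for CPIJ014269). CPIJ016255 was at 1.95 to 2.83 CPM in WI and at 28.3, 28.2, 8.55, 6.86 and 11.3 CPM in MR (log2 2.83 ± 0.35, FDR 1.85e-05), and it was higher still in MS at 45.8 ± 7.36 CPM. CPIJ014268 was at 3.44 to 10.4 CPM in WI and 14.4 to 39.3 CPM in MR (log2 1.96 ± 0.45, FDR 0.00682), but at only 6.56 ± 0.883 CPM in MS (MR against MS, FDR 0.00687). CPIJ014269 rose by log2 1.32 ± 0.31 (FDR 0.00904), a call that was also lost when counts were scaled by library size alone (FDR 0.0599), and its lowest MR value of 6.47 CPM lay below its highest WI value of 7.07 CPM.

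The myofibril is the contractile apparatus of muscle. Of the 4 genes annotated to it, 3 (75.0%, against 4.95% of all tested genes) were called higher, and CPIJ000848 was not (log2 -0.30 ± 0.47, FDR 0.796). CPIJ009743 was at 638, 1075, 690.2, 853 and 713 CPM in WI and at 3373, 3517, 1344, 1289 and 2847 CPM in MR (log2 1.64 ± 0.32, FDR 0.00186). CPIJ000849, annotated to the myosin filament, was at 7063, 6836, 544, 226 and 2275 CPM in MR against 111 to 404 CPM in WI, so that MR replicate 4 overlapped with WI despite a fitted rise of log2 4.03 ± 0.73 (FDR 0.00095). CPIJ014296 rose by log2 1.07 ± 0.32 (FDR 0.0387), but its call was lost without any 1 of MR replicates 1, 2 and 5 and WI replicates 1, 3, 4 and 5. All 3 were at 8949.9 CPM or more on average in MS.

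The MR pools were not alike in these groups. For 26 of the 34 cuticle genes and 14 of the 19 chitin-binding genes, MR replicates 1 and 2 were both above the other 3 MR pools, against 22.2% of all tested genes. The same was true of all 4 myofibril genes, whose summed level was 16118 and 15793 CPM in MR replicates 1 and 2 and 3961 to 9129 CPM in the rest. The myofibril sums of MR replicates 3 and 4 were 4433 and 3961 CPM, below WI replicate 2 only. The WI sums were 3755, 6068, 2680, 3479 and 3202 CPM. In WI too, replicates 1 and 2 had the highest myofibril and chitin-binding sums, whereas WI replicate 1 had the lowest cuticle sum. What set MR replicates 1 and 2 apart was not tested. In a fit of MR replicates 3 to 5 with all WI libraries, chosen after the values were seen, 443 genes were called higher and 352 lower. WI replicates 1 and 2 were kept in it, although they varied together with MR replicates 1 and 2 (correlations below). The fit was therefore not balanced over replicate numbers, here and wherever calls without MR replicates 1 and 2 are given. In it, 23 of the 34 cuticle genes and 10 of the 19 chitin-binding genes were called higher. CPIJ009331, CPIJ017736, CPIJ008831, CPIJ000680 and CPIJ000679 kept their calls in that fit.

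**Figure D3:**
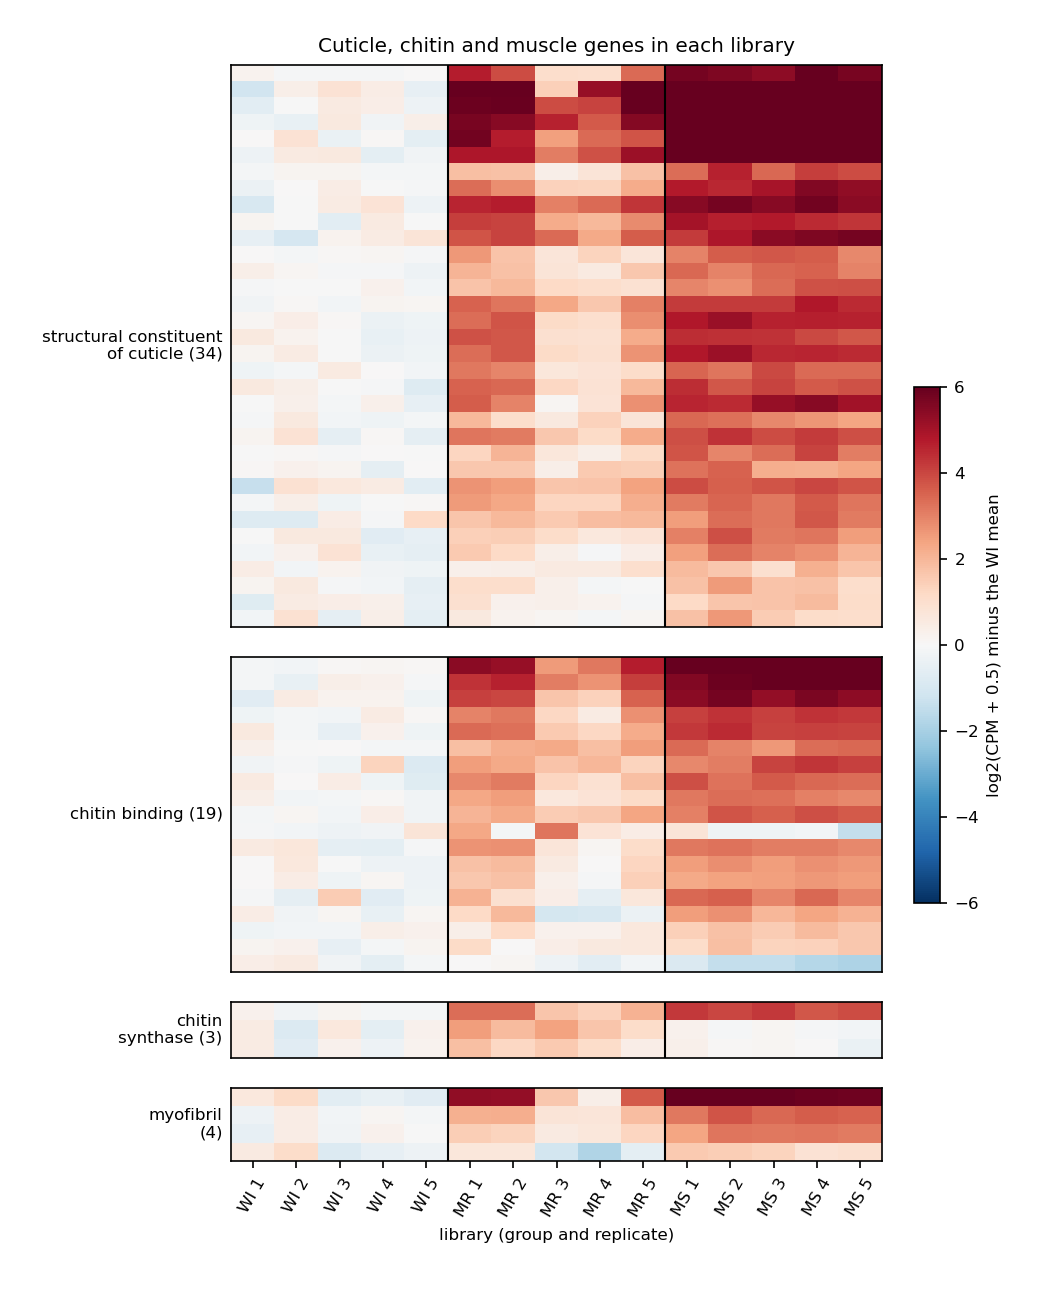
Each row is a gene of the structural constituent of cuticle, chitin binding, chitin synthase or myofibril list and each column a library, coloured by log2(CPM + 0.5) minus the mean of the 5 WI libraries (the scale ends at -6 and 6). MR replicates 1 and 2 are the reddest of the MR columns for 26 of the 34 cuticle genes, and the summed cuticle level is higher in every MS library than in any MR library.

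Of 10 fatty acid biosynthesis genes, 4 were called higher (against 4.95% of all tested genes) and none lower, and 2 were called higher without MR replicates 1 and 2. CPIJ004097 rose by log2 2.04 ± 0.34 (FDR 0.000396), from 0.302 to 1.05 CPM in WI to 1.85 to 3.33 CPM in MR. CPIJ013818 rose by log2 1.93 ± 0.40 (FDR 0.00315), CPIJ011097 by 1.45 ± 0.32 (FDR 0.00523) and CPIJ013663 by 0.93 ± 0.25 (FDR 0.0237), the last of which lost its call without any 1 of MR replicates 1 and 2 and WI replicates 2, 3 and 4. None of 6 alcohol-forming fatty acyl-CoA reductases, which make the long-chain alcohols of insect waxes, passed the test, although their median log2 fold change was 1.05.

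In central carbon metabolism most genes did not pass the test. The counts called higher were 2 of 12 genes of the tricarboxylic acid cycle (16.7%), 2 of 14 glycolytic genes (14.3%) and 3 of 31 genes of the electron transport chain (9.68%), against 4.95% of all tested genes, with none lower, and none of 10 ATP synthase genes was called. CPIJ008366, a malate dehydrogenase gene, was at 488 to 846 CPM in WI and 863 to 1676 CPM in MR (log2 1.00 ± 0.26, FDR 0.0187), and its call was lost without MR replicate 1, MR replicate 2 or WI replicate 3. CPIJ019024, which codes for a haem-binding electron carrier of the respiratory chain by its annotation, was at 3636 to 4898 CPM in MR against 1289 to 2416 CPM in WI (log2 1.09 ± 0.28, FDR 0.0165). The glycolytic gene CPIJ009280 rose by log2 0.91 ± 0.23 (FDR 0.0147). Neither CPIJ019024 nor CPIJ009280 was called without MR replicates 1 and 2 (FDR 0.0802 and 0.103). CPIJ040862 of the tricarboxylic acid cycle (log2 1.24 ± 0.34, FDR 0.0223) lost its call in 5 of the 10 fits that left out 1 library. The glycolytic CPIJ014577 (1.05 ± 0.32, FDR 0.0397) lost it in 9, and CPIJ040085 (1.73 ± 0.45, FDR 0.0188) and CPIJ040089 (1.57 ± 0.47, FDR 0.0406) of the electron transport chain in 1 and 8. Among 6 genes of proline metabolism 3 (50%, against 4.95% of all tested genes) were called higher. Of these CPIJ004400, of proline synthesis, rose most (log2 3.86 ± 0.71, FDR 0.00118), at 16.8, 1.31, 1.80, 1.56 and 7.79 CPM in MR against at most 0.983 CPM in WI. The other 2, CPIJ012704 (log2 1.10 ± 0.29, FDR 0.0187) and CPIJ013217 (0.94 ± 0.26, FDR 0.0233), lost their calls in 1 and 5 of the 10 fits that left out 1 library. CPIJ000078, a transferase of isoprenoid synthesis, was highest in the MR replicates that were low in cuticle genes, at 7.34, 5.38, 20.3, 38.6 and 7.93 CPM against 0.429 to 2.03 CPM in WI (log2 3.75 ± 0.80, FDR 0.00394). Of 7 metallocarboxypeptidases, enzymes that remove amino acids from the end of peptides, 4 (57.1%, against 4.95% of all tested genes) were called higher. Summed over the 7, the level was 93.2 to 111 CPM in WI, 163 to 331 CPM in MR and 168 to 257 CPM in MS. CPIJ001743 was at 10.8 to 16.1 CPM in MR and 2.35 to 4.84 CPM in WI (log2 1.95 ± 0.26, FDR 4.36e-05), and it was lower again in MS at 2.73 ± 0.292 CPM (FDR 1.19e-05).

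Genes of the nucleolus, where ribosomes are assembled, were called in the other direction. Of 33 nucleolar genes, 9 (27.3%, against 3.99% of all tested genes) were called lower and none higher, with a median log2 fold change of -0.18, so most of the list did not pass the test. Their summed level was 4619 to 7852 CPM in WI and 2141 to 3235 CPM in MR, with no overlap, and in MS it was 1185 to 1375 CPM. CPIJ004969, a gene of rRNA maturation, was at 277 to 515 CPM in WI and 120 to 173 CPM in MR (log2 -1.36 ± 0.20, FDR 9.06e-05). CPIJ001130 was at 379.7, 443, 301.6, 286 and 483 CPM in WI and at 216, 139, 145, 159.5 and 169 CPM in MR (log2 -1.19 ± 0.20, FDR 0.000448), and CPIJ001550 fell by log2 1.17 (SE 0.19, FDR 0.000345). Among 8 genes of RNA methylation, 3 (37.5%, against 3.99% of all tested genes) were called lower. The same 3 are among 11 genes of tRNA processing, of which 2 others (18.2%, against 4.95%) were called higher. CPIJ007050, CPIJ007261 and CPIJ011444 each fell by about 2-fold, but lost the call when counts were scaled by library size alone (FDR 0.0574, 0.0505 and 0.0802). None of 11 proteasome genes was called.

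Endopeptidase inhibitors block proteases such as those of the haemolymph and gut. Of 22 genes with that annotation, 6 (27.3%, against 3.99% of all tested genes) were called lower and 2 (9.09%, against 4.95%) higher. Without MR replicates 1 and 2, the number called lower was 3. CPIJ007024 had the largest fall among called genes without overlap and with a mean of at least 1 CPM, from 156, 262, 337, 295 and 263 CPM in WI to 10.2, 5.11, 9.70, 7.02 and 9.78 CPM in MR (log2 -4.97 ± 0.47, FDR 7.32e-07). CPIJ007021 (log2 -4.45 ± 0.81, FDR 0.00102) and CPIJ007023 (log2 -4.73 ± 1.01, FDR 0.00413) fell with it, and in both MR replicate 3 stood above the other MR pools while remaining below all WI pools. How reads that match several of these genes were counted is not known, so their counts may not be separate. CPIJ010521, described above, was 1 of the 2 that rose.

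Other large falls were from genes without a name in the sources used here. CPIJ015026 changed by log2 -3.77 ± 0.40 (FDR 3.38e-06), CPIJ015027 by -3.17 ± 0.44 (FDR 6.1e-05) and CPIJ015028 by -3.51 ± 0.48 (FDR 5.74e-05). CPIJ015028 was at 161, 521, 195, 302.3 and 169 CPM in WI and at 22.9, 14.004, 41.5, 14.5 and 25.3 CPM in MR. CPIJ012752 fell by log2 4.89 ± 0.56 (FDR 7.21e-06), CPIJ013723 by 4.67 ± 0.85 (FDR 0.00104), CPIJ002237 by 4.10 ± 0.51 (FDR 1.75e-05), CPIJ012716 by 3.94 ± 0.83 (FDR 0.00381) and CPIJ040077 by 3.83 ± 0.93 (FDR 0.0107). All of these 8 were also low in MS, with no difference between MR and MS that passed the test. The arginine and amino acid synthesis gene CPIJ012882 was at 46.0 to 79.0 CPM in WI and 7.87 to 12.5 CPM in MR (log2 -2.55 ± 0.26, FDR 2.71e-06), and at 1.72 ± 0.705 CPM in MS. The peroxidase CPIJ008014 was at 720.2 to 1494 CPM in WI and 132 to 481 CPM in MR (log2 -1.89 ± 0.36, FDR 0.00179). CPIJ015481, annotated to protein-chromophore linkage, the term that holds the light-sensing opsins, fell by log2 1.64 (SE 0.19, FDR 6.54e-06).

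**Figure D4:**
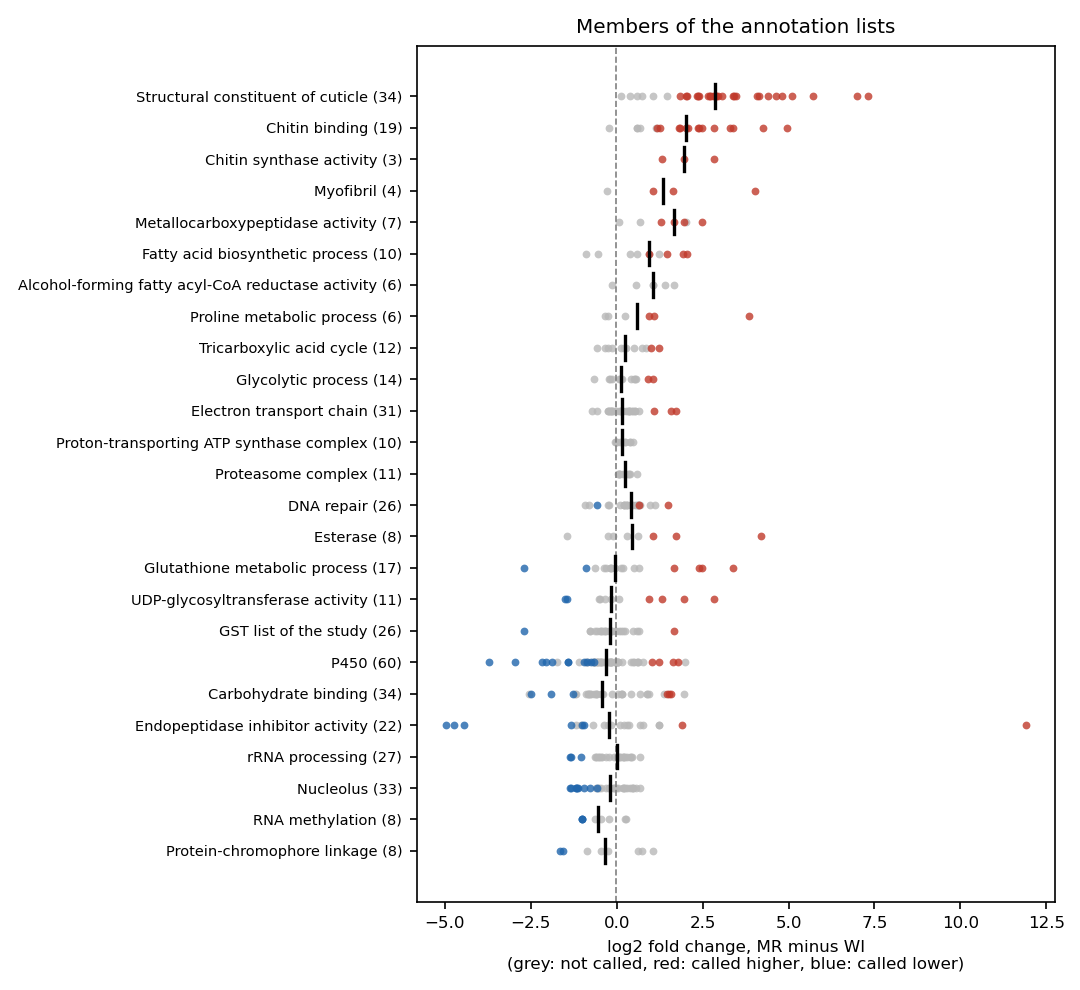
Log2 fold change, MR minus WI, of every member of 25 annotation lists (number of genes in parentheses), with a black bar at the median of each list and a dashed line at the median of all tested genes, -0.0085. The 28 called cuticle genes and 14 called chitin-binding genes lie to the right, and the 9 called nucleolar genes to the left.

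Among 94 genes that the study listed as P450s, GSTs or esterases, 8 were called higher and 12 lower. Of 60 P450s, 11 (18.3%) were called lower and 4 (6.67%) higher, against 3.99% and 4.95% of all tested genes, with a median log2 fold change of -0.31. The summed P450 level was 1652 to 2066 CPM in WI and 1463 to 2129 CPM in MR, so the groups overlapped. All 94 were picked by the study from genes it called in these libraries, in WI against CO or in MR against MS.

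CYP9J34 (CPIJ010546) fell most, from 11.8, 5.499, 4.28, 17.5 and 6.65 CPM in WI to 0.619, 1.24, 0.257, 0.545 and 0.806 CPM in MR (log2 -3.72 ± 0.74, FDR 0.00219). In Aedes aegypti, several CYP9J enzymes are known to metabolise pyrethroid insecticides. Of the 8 CYP9J genes 3 (37.5%, against 3.99% of all tested genes) were called lower, and the rest were not called. CYP9J33 (CPIJ010544) was at 98.4 to 173 CPM in WI and 21.1 to 44.4 CPM in MR (log2 -1.89 ± 0.31, FDR 0.000347). CYP9J33 was also lower in MR than in MS (FDR 0.0141). CYP325BC2 (CPIJ010810) fell by log2 2.97 (SE 0.50, FDR 0.00042), from 4.19 to 16.4 CPM to 0.266 to 1.84 CPM. CYP4K3 (CPIJ009468) was at 28.9 to 48.7 CPM in WI and 6.22 to 10.7 CPM in MR (log2 -2.04 ± 0.24, FDR 1.18e-05), and CYP4D41 (CPIJ009473) fell by log2 2.19 (SE 0.38, FDR 0.00073). CYP305A7 (CPIJ014939) fell by log2 1.42 (SE 0.31, FDR 0.00472) and CYP6B7 (CPIJ000298) by 0.96 (SE 0.16, FDR 0.000396). CYP314A1 (CPIJ001380), which in Drosophila makes the active moulting hormone, was at 4.83 to 8.47 CPM in WI and 1.72 to 3.18 CPM in MR (log2 -1.41 ± 0.25, FDR 0.000735).

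The 3 smallest falls among P450s were those of CYP9J40 (CPIJ010543, log2 -0.87 ± 0.23, FDR 0.0194), CYP9M12 (CPIJ014220, log2 -0.74 ± 0.22, FDR 0.0344) and CYP6AG14 (CPIJ017014, log2 -0.65 ± 0.18, FDR 0.0267). Each of these lost its call when 1 library was left out. CYP9M12 was at 9.09 to 11.6 CPM in WI and 5.28 to 7.47 CPM in MR, and its FDR was over 0.05 without any 1 of MR replicates 1, 3, 4 and 5 and WI replicates 2 to 5. CYP9J40 lost its call without MR replicate 2, 3 or 4 or WI replicate 5, and CYP6AG14 without MR replicate 1, 2, 3 or 5 or WI replicate 2 or 5.

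The P450s that rose did so by less than 4-fold. CYP6P14 (CPIJ005955) was at 24.4, 15.8, 22.7, 23.2 and 25.3 CPM in WI and 57.3, 45.3, 49.8, 55.5 and 55.9 CPM in MR (log2 1.24 ± 0.28, FDR 0.00601). CYP6Z13P (CPIJ019586) rose by log2 1.79 ± 0.33 (FDR 0.00113) at a level of at most 2.39 CPM. CYP303A1 (CPIJ009170), known in Drosophila for the development of sensory bristles, rose by log2 1.64 ± 0.44 (FDR 0.0225), with a call that was lost without MR replicate 4 or WI replicate 1, 2 or 5. The unnamed P450 CPIJ009415 was at 208 to 463 CPM in WI and 474 to 974 CPM in MR (log2 1.02 ± 0.31, FDR 0.0456), and it lost its call in 8 of the 10 fits that left out 1 library, the exceptions being those without MR replicate 4 and WI replicate 1.

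Of 8 esterases, 3 (37.5%, against 4.95% of all tested genes) were called higher and none lower. The summed level of the 8 was 72.1 to 119 CPM in WI and 75.4 to 99.0 CPM in MR, so the sums overlapped. The study's GST list holds 26 genes, of which 12 are named as glutathione S-transferases. The other 14 carry other names, among them sulfoxide reductases and glucosyl or glucuronosyl transferases. Of the 26, 1 was called in each direction (3.85%, near the 4.95% higher and 3.99% lower of all tested genes), and both are named as GSTs. The carboxylesterase CPIJ011170 was at 0.504, 0.201, 0.0290, 0.364 and 0.300 CPM in WI and 3.75, 2.01, 8.01, 8.63 and 3.15 CPM in MR (log2 4.19 ± 0.76, FDR 0.00095). It was also higher in MR than in MS, where it averaged 0.575 ± 0.216 CPM (FDR 0.00962). CPIJ011168 rose by log2 1.73 ± 0.38 (FDR 0.00471), from 0.949 to 1.63 CPM to 1.90 to 6.52 CPM, and CPIJ000048 rose by log2 1.05 ± 0.21 (FDR 0.00281), from 5.31 to 6.42 CPM to 7.12 to 16.3 CPM.

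The GST gene CPIJ006160 was at 211 to 260.4 CPM in WI and 1222, 1113, 326, 349.8 and 832 CPM in MR (log2 1.66 ± 0.34, FDR 0.00267), again with MR replicates 1 and 2 above the rest. It was at 2968 ± 579 CPM in MS, and without MR replicates 1 and 2 it was not called (log2 1.05, FDR 0.0711). GST1 (CPIJ002675) fell by log2 2.71 (SE 0.71, FDR 0.019), from 5.87 to 15.3 CPM to 0.717 to 2.13 CPM, and lost its call without MR replicate 3. Both of these are among the 17 genes of glutathione metabolism, whose median log2 fold change was -0.06. Of the 17, 4 (23.5%, against 4.95% of all tested genes) were called higher and 2 (11.8%, against 3.99%) lower. CPIJ006159 was at 51.7, 115, 49.5, 80.3 and 66.8 CPM in WI and 1128, 874, 449.96, 448 and 903 CPM in MR (log2 3.39 ± 0.36, FDR 3.14e-06), and was at 3449.96 ± 835 CPM in MS. CPIJ020053 and CPIJ019572 rose by log2 2.39 ± 0.30 (FDR 2.35e-05) and 2.49 ± 0.34 (FDR 5.08e-05). Unlike CPIJ006159 they were higher in MR than in MS (FDR 0.00113 and 0.00624), and CPIJ020053 was at 75.4, 125, 128, 174 and 91.8 CPM in MR against 17.2 to 31.7 CPM in WI.

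UDP-glycosyltransferases join a sugar to hormones, pigments and foreign compounds. Of 11 genes with this activity, 4 (36.4%, against 4.95% of all tested genes) were called higher, of which 3 are the chitin synthases described above. Called lower were 2 (18.2%, against 3.99%). CPIJ004373 was at 85.2 to 219 CPM in WI and 26.5 to 79.9 CPM in MR (log2 -1.52 ± 0.32, FDR 0.00393), and CPIJ008571 was at 109.9 to 279.6 CPM in WI and 43.1 to 86.9 CPM in MR (log2 -1.46 ± 0.29, FDR 0.00204). Both were lower in MR than in MS (FDR 0.0292 and 0.0218). CPIJ000040 rose by log2 0.93 ± 0.29 (FDR 0.0495), a call that was lost in 9 of the 10 fits that left out 1 library.

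**Figure D5:**
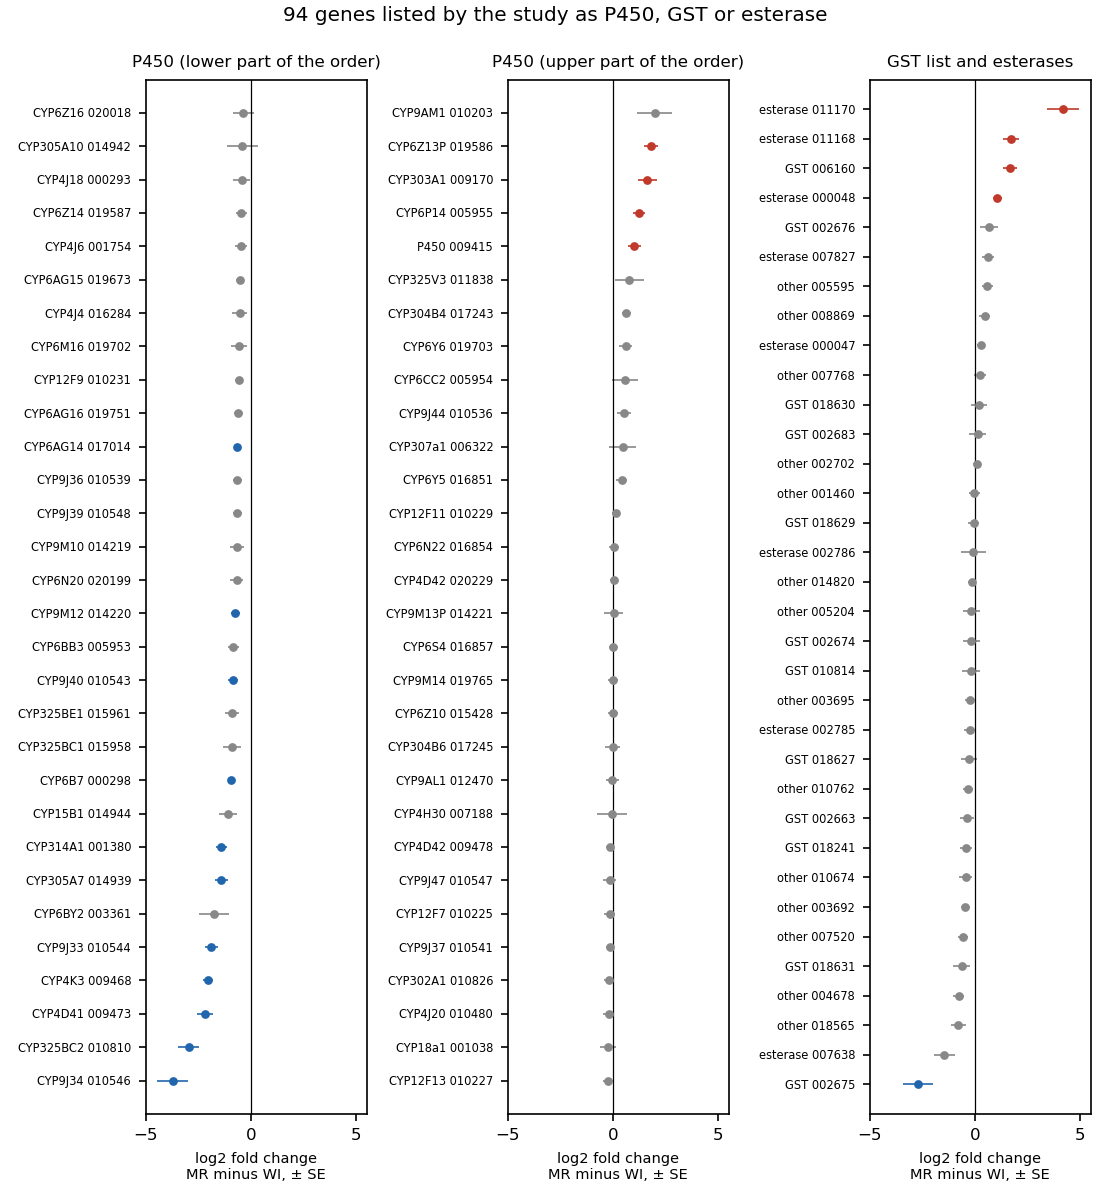
Log2 fold change, MR minus WI, with its SE for each of the 60 P450s (in 2 panels, by order of the estimate) and for the 26 genes of the GST list (those not named as GSTs are marked other) and 8 esterases, labelled by name where there is one and by the last digits of the identifier. Red marks the 8 genes called higher and blue the 12 called lower.

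The ribosomal protein gene RPL8 (CPIJ000162) was the reference of the study's qRT-PCR, which was run on females of the Sebring laboratory strain and not on MR or WI females. RPL8 was at 2063, 3282, 3172, 4105 and 4405 CPM in WI and at 1925, 1705, 2114, 2194 and 2287 CPM in MR. The estimate was log2 -0.74 ± 0.29 and did not pass the test (edgeR FDR 0.126), and the groups overlapped. With the replicate number as a block it passed, at log2 -0.68 (FDR 0.0326).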

How the data were processed

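Raw counts of fragments per gene, as deposited by the authors, were used without their being normalized. According to the study's methods, reads were trimmed with Trim Galore 0.6.4, aligned with STAR 2.7.3a to the VectorBase genome and counted with featureCounts 1.6.0. Its options for strand and multiple matches are not given in the sources used. All 20 libraries were fitted together in edgeR 4.0.16 (R 4.3.3; TMM, filterByExpr with minimum count 10 and minimum total 15, which kept 17499 of 19793 genes) and MR minus WI was tested by quasi-likelihood F, with a Benjamini-Hochberg FDR under 0.05 called. The SE is the log2 fold change divided by the square root of F. Replicates are technical in the methods and biological in the labels, and p-values measure only the spread between these pools. After the group means were subtracted, MR and WI libraries that share a number correlated over genes at r = 0.348, 0.279, 0.196, 0.409 and 0.214 (replicates 1 to 5), whereas other MR and WI pairs gave -0.499 to 0.492. MR replicate 2 correlated more with WI replicate 1 (0.492) than with WI replicate 2, so a pairing by number was not shown. All pairs within replicates 1 and 2, and all within replicates 3 to 5, were positive, and all other pairs were negative. No label names a pairing, and the replicate block is given as an alternative only.

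Names of 94 genes of the study's P450, GST and esterase lists, as it assigned them, and 54 GO lists come from its tables. The gene table of the reference matched 0 identifiers, so neither positions nor sequences are given. Members, lists and tests were chosen with earlier results of these data known. Named genes were called genes without overlap between groups: the 8 largest changes in each direction with a mean of at least 1 CPM, the 5 largest with at least 50 CPM, up to 3 per list and direction, all called detoxification genes, the genes with most counts against a group at 0, and the qRT-PCR reference. CPIJ000849, CPIJ011097, CPIJ013217, CPIJ014269 and CPIJ040862, whose groups overlap, were named after their values were seen. Counting floors (3 counts over a group) cover counting error only. The test was checked on simulated counts with known changes. It called 16.7% of genes changed by log2 1, 78.7% at log2 2 and 79.1% at log2 3, and 2 unchanged genes. Changes of about 2-fold could thus often go uncalled. The alternatives were DESeq2 1.42.0, edgeR's exact and likelihood ratio tests, RLE factors, library size alone, 2 other filters, fits of fewer libraries, and the replicate block.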

Additional observations from a re-analysis of the deposited data

Results flagged for a closer look

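For the 86 genes above, each library's level was set against the other 4 of its group, 172 groups of values in all. In 13 of them the highest or lowest library lay apart, with a gap to its nearest neighbour of more than 0.71 of the group's range, which chance alone gives in about 1 group of 20.

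MR replicate 3 was the highest of its group for 4 genes. It was at 22.6 CPM for CPIJ007021 (others 1.91 to 5.98) and at 6.07 CPM for CPIJ007023 (others 0.0653 to 1.15), both endopeptidase inhibitors that fell in MR. It was at 0.699 CPM for the unnamed CPIJ012716 (others 0.160 to 0.314) and at 77.7 CPM for the UDP-glycosyltransferase CPIJ000040 (others 45.6 to 54.2). MR replicate 5 was at 21.0 CPM for CPIJ015027 (others 6.41 to 9.51). MR replicate 1 was at 26.2 CPM for the RNA methylation gene CPIJ007050 (others 18.5 to 20.7).

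WI replicate 2 lay apart for 4 genes. It was high for CPIJ017875 at 5.92 CPM (others 2.45 to 2.85) and for CPIJ004373 at 219 CPM (others 85.2 to 115). It was low for CYP6P14 (CPIJ005955) at 15.8 CPM (others 22.7 to 25.3) and for CPIJ012752 at 1.54 CPM (others 7.60 to 9.88). WI replicate 1 was at 19.6 CPM for CPIJ007023 (others 49.6 to 59.1). WI replicate 3 was at 0.441 CPM for CPIJ004639 (others up to 0.0571), and WI replicate 4 held the only WI counts of CPIJ007140, at 0.0863 CPM.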

How the results depend on the processing

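Of the 85 called genes above, 57 kept their call under all 22 alternatives and none changed direction. The call was lost for 16 in at least 1 of the 10 fits that left out 1 library and for 7 when counts were scaled by library size alone. No call was lost with the exact test, the likelihood ratio test, DESeq2 or the replicate block, and the block added a call for RPL8 only. The number of genes called higher was 1421 with the replicate block, and the number called lower was 1232. It was 418 lower with library size alone. Leaving out 1 library gave 609 to 793 higher and 439 to 634 lower, the fewest lower without WI replicate 2. Other alternatives stayed within 1.5 times, among them DESeq2 with 1174 higher and 992 lower. A fit of only the MR and WI libraries, also within 1.5 times, gave 1080 higher and 1035 lower. Of the alternatives added after seeing the data, the replicate block in a fit of only MR and WI gave 1479 and 1454. MR replicates 3 to 5 with all WI gave 443 higher and 352 lower, and 25 of the 85 genes were not called. That fit had fewer libraries and kept WI replicates 1 and 2. Of genes with a mean under 1 CPM 2.12% were called (median SE 0.985), against 19.6% at 100 CPM or more (median SE 0.290), so low counts limit what could be called.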
